A study of Mus musculus with 12 samples.

Results

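Myc, Hif1a and Trp53 are the genes of 3 transcription factors that set how a T cell grows, feeds and survives, and their RNA was followed here in T cells taken from pancreatic tumors. The members were sought by gene symbol, as Myc, Hif1a, its partner Arnt, and Trp53, among the 748 endogenous genes of the nCounter Mouse Metabolic Pathways panel. Of these 4 genes 3 had a probe and were measured in all 12 lanes. Arnt has no counts in the data used here, so it was not analysed. The RNA came from female C57BL/6 mice, 8 to 10 weeks old, each with a subcutaneous tumor of KPC.Luc, a luciferase-marked mouse pancreatic cancer line. From day 6 to 7 after implantation each mouse received 10 µg of a peptide every day and 200 µg of an antibody every 3 days, for 10 days in all. The peptide was either a scrambled sequence (Scram) or ANT008, an antagonist of the receptors for vasoactive intestinal peptide (VIP). The antibody was either an isotype IgG or anti-PD-1 (aPD-1). The 4 groups of 3 mice each are called by the peptide and the antibody (Scram+IgG, ANT008+aPD-1 and so on), and all 12 mice carried the same tumor line and received both a peptide and an antibody. Lines of the KPC type are derived as a rule from tumors with mutant Trp53, and the alleles of this line are not given in the sources used here.

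MYC is switched on when a T cell is activated, and it drives the uptake of glucose, glutamine and amino acids and the making of nucleotides and ribosomes. HIF-1α, the product of Hif1a, pairs with ARNT to switch on glycolytic and angiogenic genes. Its amount is set largely by breakdown of the protein when oxygen is present, and that of p53, the product of Trp53, by breakdown through MDM2. The RNA levels below are therefore levels of the transcripts and give no measure of the proteins.

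In this assay each gene is read by a pair of probes that bind a target of 100 bases in its transcript, and each bound pair is counted once. The target of Hif1a, within the coding part of the transcript, is shown because every value for this gene is a count of that stretch. It covers bases 1294 to 1393 of the RefSeq transcript NM_010431.2, as the panel definition gives it, and is written 5′ to 3′ in lower case with no part marked.

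Hif1a: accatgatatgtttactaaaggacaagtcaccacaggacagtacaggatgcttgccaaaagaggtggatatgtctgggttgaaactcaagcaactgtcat

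The target of Trp53 spans bases 1835 to 1934 of NM_011640.1. The share of G and C was 43% in the Hif1a target and 53% in the Trp53 target, against a median of 48% over the panel. No run of 16 bases in either target occurred in any of the 767 other endogenous and housekeeping targets. Since probes differ in how well they are counted, levels were compared between mice and not between genes.

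The lanes differed widely in depth, with endogenous totals from 5776 to 1486646 counts. A gene was taken as above background in a lane when its count exceeded the mean plus 2 SD of the 8 negative control probes, which lay between 9.94 and 28.2 counts. Most endogenous genes failed to exceed it in ANT008+aPD-1 mouse 1 (79.1%) and mouse 3 (52.3%), called the shallow lanes below, against 13.4% to 30.9% elsewhere. Counts were divided by a lane size made from the housekeeping genes Dnajc14, Oaz1 and Ubb, and these scaled counts are used below. All 10 T cell markers measured, the CD3 genes among them, were above background in every lane other than that of ANT008+aPD-1 mouse 1, where 7 were. The cells were taken from the tumor by magnetic selection for CD90.2, a surface protein of mouse T cells, and 80 to 85% of them were T cells as the submitters describe it.

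Myc had its lowest scaled counts in the ANT008+aPD-1 mice. The 3 Scram+IgG mice had scaled Myc counts of 621, 1348 and 1345. The ANT008+IgG mice had 821, 2206 and 1028, and the Scram+aPD-1 mice 712, 784 and 1197. The ANT008+aPD-1 mice had 288, 581 and 578. Each of the 3 ANT008+aPD-1 values was below each of the other 9, while the other groups overlapped one another. The gap was narrow, from 581 in ANT008+aPD-1 mouse 2 to 621 in Scram+IgG mouse 1, and 3.28% of the 640 genes tested also had all 3 ANT008+aPD-1 mice below all 9 others. Group means were 1105 ± 419 in Scram+IgG, 1352 ± 747 in ANT008+IgG, 897 ± 262 in Scram+aPD-1 and 482 ± 168 in ANT008+aPD-1 (SD, n = 3 each). In this order of levels, ANT008+IgG, Scram+IgG and Scram+aPD-1 did not differ beyond their spread.

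The depth behind the lowest Myc values was small. ANT008+aPD-1 mouse 1 gave 8 Myc counts, below the lane's background of 9.94 and with an exact Poisson interval from 3.45 to 15.8 counts (95%, for counting error only). That interval corresponds to scaled counts from 124 to 568, and the background itself to 358, so that even a Myc count at background would lie below the lowest mouse of the other groups. ANT008+aPD-1 mouse 3 gave 48 counts, for which the interval of the scaled count, 426 to 766, reaches Scram+aPD-1 mouse 1 and Scram+IgG mouse 1. ANT008+aPD-1 mouse 2, the deep lane of the group, gave 736 counts.

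**Figure D1:**
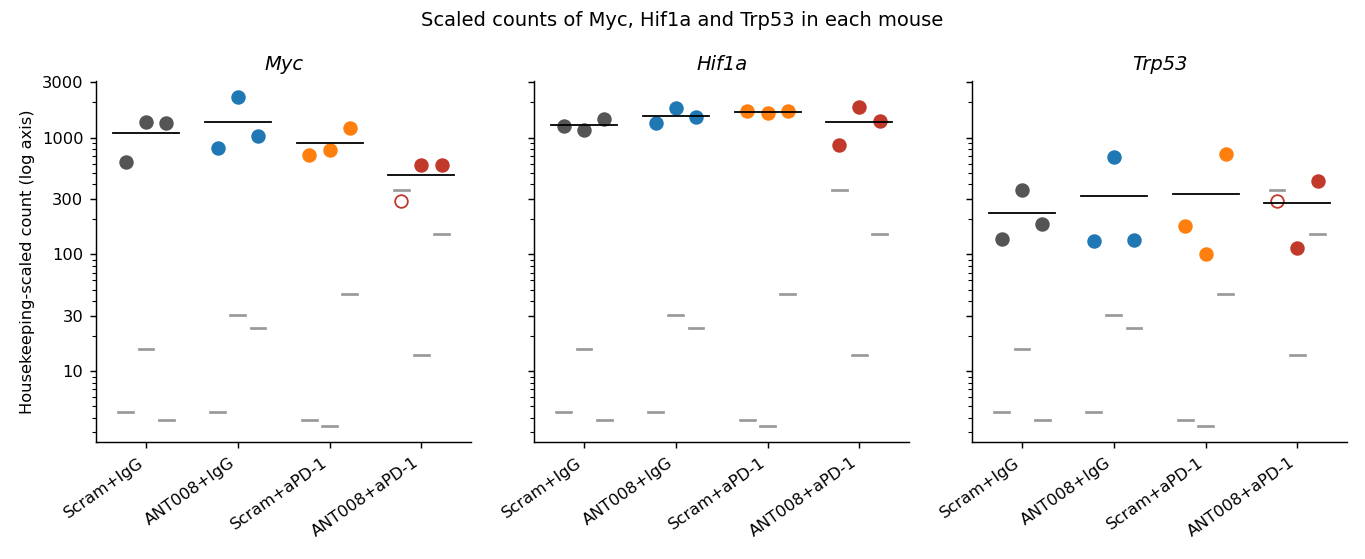
Housekeeping-scaled counts (log axis) of Myc, Hif1a and Trp53 in the 12 mice, 3 per group. Filled points are above the background of their lane, open points are not, gray ticks give that background on the same scale, and black lines are group means. The ANT008+aPD-1 points for Myc, from 288 to 581, lie below those of the other groups, the Hif1a points lie between 865 and 1811, and the Trp53 points spread within every group.

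Compared with Scram+IgG, Myc in ANT008+aPD-1 had a log2 fold change of -1.16 ± 0.49 (SE, n = 3 against 3), with an unadjusted p of 0.0363 and an adjusted p of 0.362 from edgeR over 640 genes. Compared with ANT008+IgG the log2 fold change was -1.45 ± 0.49, with an unadjusted p of 0.0126 and an adjusted p of 0.578 from edgeR over the same genes. Compared with Scram+aPD-1 it was -0.86 ± 0.49, with an adjusted p of 0.751 from edgeR. None of these passed the threshold of 0.1 on the adjusted p. Nor did any of the 640 genes in any of the 6 contrasts (0% called in each). At an unadjusted p under 0.05, 3.44% of the genes were lower in ANT008+aPD-1 than in Scram+IgG and 2.34% lower than in ANT008+IgG. Without the 2 shallow lanes the group is 1 mouse, assumed to vary like the others, and the log2 fold change of Myc against Scram+IgG was -0.93 with an adjusted p of 0.885 from edgeR.

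With either agent alone Myc differed from Scram+IgG by less than its spread between mice. ANT008+IgG against Scram+IgG gave a log2 fold change of 0.29 ± 0.48 and Scram+aPD-1 against Scram+IgG -0.30 ± 0.48 (adjusted p from edgeR 0.999 and 0.988). The direction for ANT008+IgG rested on mouse 2 of that group, without which it was -0.26. The interaction, which asks if the combination differs from the sum of both agents, was -1.15 ± 0.68 on the log2 scale (adjusted p = 0.993 from edgeR). An exact permutation test of any difference of Myc among the 4 groups used all 369600 arrangements of the 12 mice into groups. This exact permutation test gave p = 0.0787 (one-way F, without direction, adjusted p = 0.236 over 6 such tests). Without Scram+IgG mouse 1 the adjusted p of this exact test was 0.0904, past the threshold. The adjusted p of the same test was 0.552 without ANT008+aPD-1 mouse 1, a shallow lane.

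The separation of the Myc values depended on the scaling. Per 10000 endogenous counts Myc took 27.5, 55.2 and 57.8 in Scram+IgG, 38.1, 63.3 and 51.3 in ANT008+IgG, and 27.0, 38.9 and 31.2 in Scram+aPD-1. The ANT008+aPD-1 mice had 13.9, 27.4 and 19.3 per 10000, so that mouse 2 lay just above Scram+aPD-1 mouse 1. When lanes were scaled by all 20 housekeeping genes, ANT008+aPD-1 mouse 2 (654) also passed Scram+IgG mouse 1 (639). The mean difference from Scram+IgG hardly moved with the scaling: the log2 fold change was -1.16 with the endogenous total and -1.18 with all housekeeping genes.

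**Figure D2:**
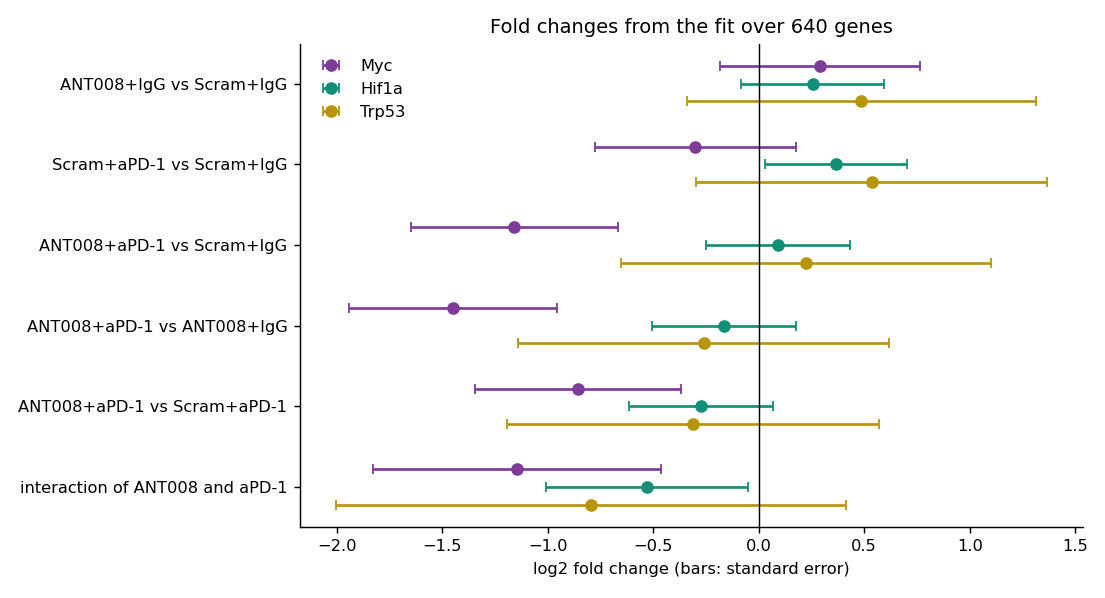
Log2 fold changes of Myc, Hif1a and Trp53 in the 5 comparisons of groups and the interaction (points), with standard errors (bars), from the edgeR fit over 640 genes. Myc lies at -1.16 and -1.45 in ANT008+aPD-1 against Scram+IgG and ANT008+IgG, Hif1a between -0.53 and 0.37, and the bars of Trp53 are the widest.

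Hif1a was above background in all 12 mice and was among the steadiest genes of the panel. The Scram+IgG mice had scaled Hif1a counts of 1261, 1152 and 1451, and the ANT008+IgG mice 1334, 1785 and 1495. The Scram+aPD-1 mice had 1679, 1622 and 1680, the ANT008+aPD-1 mice 865, 1811 and 1396. Every Scram+aPD-1 mouse was above every Scram+IgG mouse, as for 2.97% of all genes tested. With lanes scaled to the endogenous total this was lost, since Scram+aPD-1 mouse 3 (1084) lay below the 3 Scram+IgG mice (1165 to 1541). On the housekeeping scale the ANT008+aPD-1 mice spanned the values of all groups. The lowest and the highest mouse of the 12 both belonged to ANT008+aPD-1, and the lowest, mouse 1, rested on 24 counts with an exact Poisson interval of 554 to 1287 on the scaled axis (95%). The SD of log2 scaled counts over the 12 mice was 0.31, and only 8 of the 141 other genes above background in every lane (5.67%) varied less.

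Group means of Hif1a were 1660 ± 33.2 in Scram+aPD-1, 1538 ± 228 in ANT008+IgG, 1357 ± 474 in ANT008+aPD-1 and 1288 ± 151 in Scram+IgG (SD, n = 3 each). Adjacent groups in this order did not differ beyond their spread. The largest of the log2 fold changes between groups over the 12 mice was 0.37 ± 0.34, for Scram+aPD-1 against Scram+IgG (adjusted p = 0.988 from edgeR), and ANT008+aPD-1 against Scram+IgG gave 0.09 ± 0.34 (adjusted p = 0.929 from edgeR). Without the 2 shallow lanes, with 1 mouse left in ANT008+aPD-1, the latter was 0.49 ± 0.38 (adjusted p = 0.885 from edgeR). The exact permutation test over the 4 groups gave p = 0.405 (adjusted p = 0.608), and p = 0.0693 without the shallow lanes (adjusted p = 0.416). A p above the threshold does not show that the groups had equal levels.

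Because Myc and Hif1a are counted in the same lane, their ratio needs no lane size. The count of Myc over that of Hif1a was 0.492, 1.17 and 0.927 in Scram+IgG and 0.616, 1.24 and 0.688 in ANT008+IgG. It was 0.424, 0.483 and 0.712 in Scram+aPD-1 and 0.333, 0.321 and 0.414 in ANT008+aPD-1. All 3 ANT008+aPD-1 ratios were below those of the 9 other mice, by a margin of 0.414 against 0.424, and with Myc at the background of the lane mouse 1 would also have 0.414. Among the 639 genes tested other than Hif1a, 0.469% had a ratio to Hif1a with this separation. They were Myc, Map2k1 and Pebp1, the latter pair named after their values were seen, and each of the 3 was above background in 11 of the 12 lanes only. The mean log2 ratio was -0.30 ± 0.65 in Scram+IgG, -0.31 ± 0.54 in ANT008+IgG, -0.93 ± 0.39 in Scram+aPD-1 and -1.46 ± 0.19 in ANT008+aPD-1 (SD, n = 3 each). An exact permutation test over the 4 groups gave p = 0.0545 for this ratio (adjusted p = 0.236), and p = 0.176 without the 2 shallow lanes. Without Scram+IgG mouse 1 its adjusted p was 0.0904 (exact permutation), past the threshold. With 10 added to both counts, in place of the 1 used here, the exact permutation test of the ratio gave p = 0.134 (adjusted p = 0.401).

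**Figure D3:**
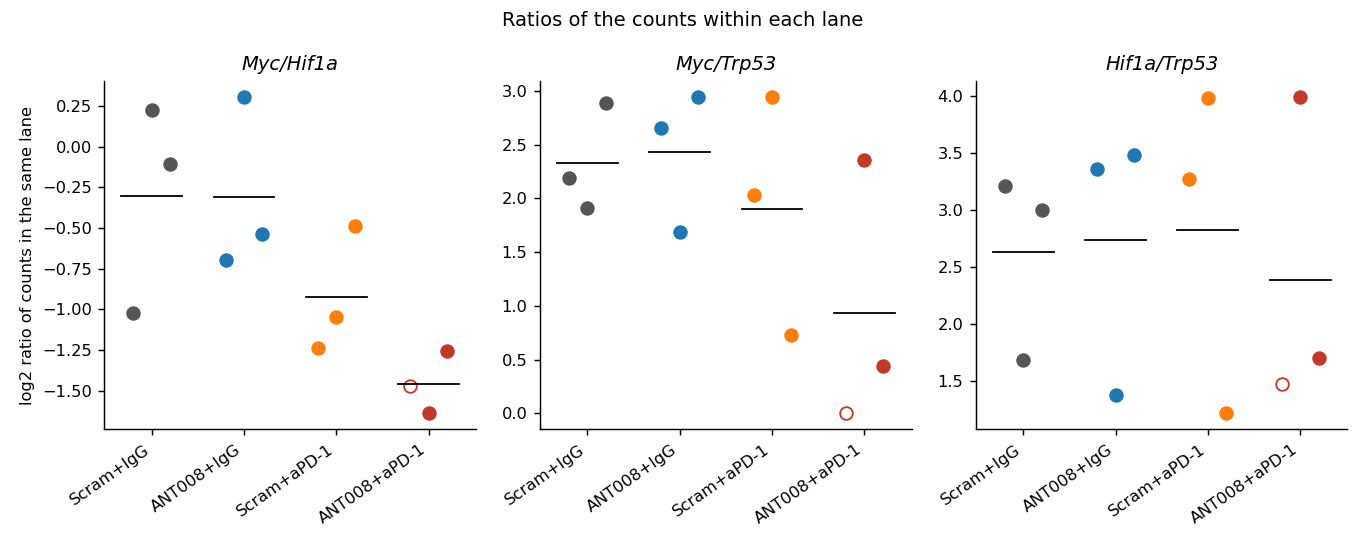
Log2 ratios of the counts of 2 genes in the same lane, for Myc over Hif1a, Myc over Trp53 and Hif1a over Trp53, in the 12 mice. Open points mark the lane in which Myc and Trp53 were below background, and black lines are group means. The Myc over Hif1a ratio has its lowest mean, -1.46, in ANT008+aPD-1, and both ratios to Trp53 spread within each group.

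Trp53 varied within groups more than between them. The Scram+IgG mice had scaled Trp53 counts of 136, 359 and 181, and the ANT008+IgG mice 130, 685 and 132. The Scram+aPD-1 mice had 174, 102 and 721, the ANT008+aPD-1 mice 288, 113 and 421. A single high mouse stood apart in ANT008+IgG and in Scram+aPD-1, and the 4 groups overlapped. In ANT008+aPD-1 mouse 1 the 8 Trp53 counts were below background, so that the value of 288 is no measured level. The SD of log2 scaled counts over the 12 mice was 1.00, larger than that of 83.8% of the genes above background in every lane.

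The log2 fold changes of Trp53 were 0.49 ± 0.83 for ANT008+IgG, 0.54 ± 0.83 for Scram+aPD-1 and 0.22 ± 0.88 for ANT008+aPD-1, each against Scram+IgG (adjusted p from edgeR 0.999, 0.988 and 0.929). Without the 2 shallow lanes the last of these was -0.99. The exact permutation test over the 4 groups gave p = 0.994 for Trp53, 0.270 for Myc over Trp53 and 0.990 for Hif1a over Trp53 (adjusted p = 0.994, 0.540 and 0.994). Over the 12 lanes the log2 scaled count of Trp53 had a Pearson r of -0.50 with the log2 endogenous total (Spearman's rho -0.48), given as a description. The part of depth in the Trp53 values was not tested.

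Across the 12 mice the 3 genes did not follow one another closely. Pearson's r was 0.52 between Myc and Hif1a, 0.37 between Myc and Trp53 and -0.02 between Hif1a and Trp53, on log2 scaled counts that share lanes and lane sizes. Among genes above background in every lane, those most like Myc were Glud1 (r = 0.909), Cd63 (r = 0.906) and Psma7 (r = 0.905), against a median r of 0.26 over 142 genes. Glud1 encodes a mitochondrial glutamate dehydrogenase, Cd63 a tetraspanin of late endosomes, and Psma7 a proteasome subunit. Those most like Hif1a were Txn1 (r = 0.830), which encodes thioredoxin, and the glycolytic genes Gapdh (r = 0.807) and Eno1 (r = 0.770), over a median of 0.17. Without the 2 shallow lanes these were 0.795, 0.569 and 0.395. Those most like Trp53 were Psmb3 (r = 0.973), Atp5d (r = 0.969) and Chmp2a (r = 0.969), over a median of 0.53.

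The summed counts of cell type markers varied among the mice, and Myc varied with them. Differences of these sums between groups were not tested. The summed scaled count of the 10 T cell markers had medians of 1177 in Scram+IgG, 2353 in ANT008+IgG, 3571 in Scram+aPD-1 and 4758 in ANT008+aPD-1. Its range was 1038 to 5327 in Scram+IgG and 3998 to 6462 in ANT008+aPD-1, so that these groups overlapped, and the median of the latter is the value of mouse 1, with 7 of the 10 markers above background. Scram+IgG mouse 1, whose Myc was the lowest of its group at 621, had the 5327 of T cell markers, and the other Scram+IgG mice, with Myc of 1348 and 1345, had 1177 and 1038. Over the 12 mice r between log2 Myc and the log2 marker sum was -0.66 (rho -0.79), and -0.59 over 10 mice without the shallow lanes. For the Myc over Hif1a ratio r was -0.72, and -0.65 without the shallow lanes. For Hif1a r was -0.11 and for Trp53 0.09. Without the shallow lanes both changed sign, to 0.27 for Hif1a and -0.10 for Trp53. The correlations are descriptions over mice that share lane sizes.

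Markers of other cells of the tumor were counted too. The 6 myeloid markers, such as Cd14 and Cd68, summed to a median of 717 in Scram+IgG, 1452 in ANT008+IgG, 1799 in Scram+aPD-1 and 2199 in ANT008+aPD-1. The r of this sum with Myc was -0.55, and -0.40 over 10 mice without the shallow lanes. The 2199 is the sum of ANT008+aPD-1 mouse 1, where 2 of the 6 were above a scaled background of 358 for each gene, so that it is no measured level. The other ANT008+aPD-1 mice had 1795 and 2479, with 5 of 6 above background in each. The 2 markers of fibroblasts and vessel-associated cells, Col6a3 and Pdgfrb, summed to 261 to 885 in Scram+IgG and 120 to 396 in ANT008+aPD-1, where neither was above background in mice 1 and 3. Their r with Myc was 0.62 (rho 0.82), and 0.80 over 10 mice without the shallow lanes. The B cell markers Ms4a1 and Blk were above background in 3 lanes and 1 lane of 12. Markers of tumor epithelium were not analysed here. The part of the cell makeup in the Myc values was not tested, and fewer cells of a type cannot be told from less RNA per cell in these samples.

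**Figure D4:**
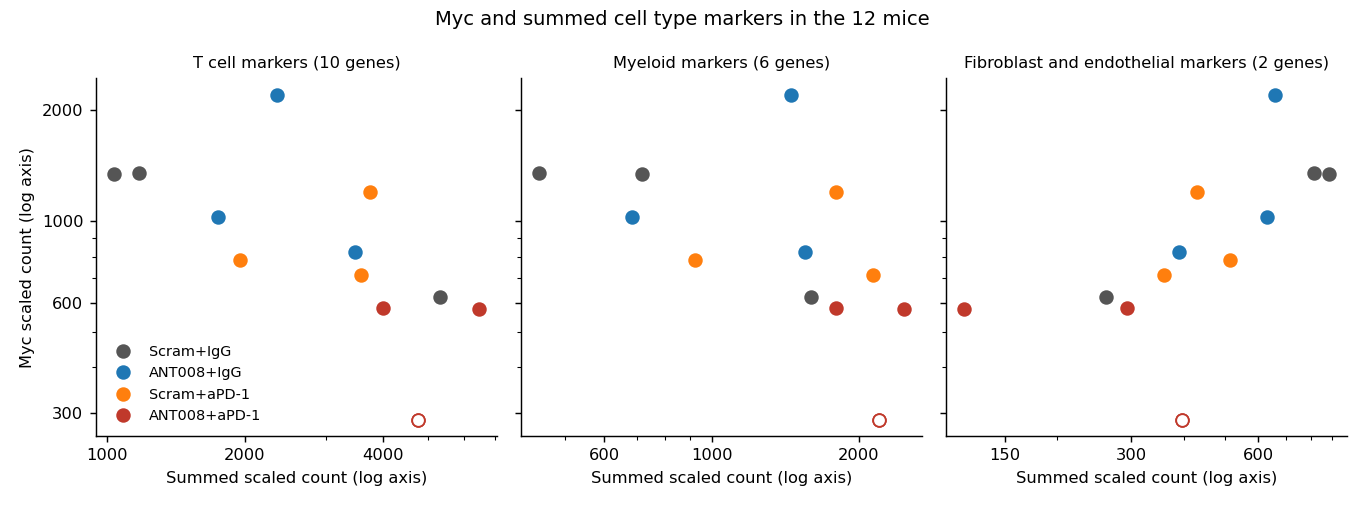
Scaled Myc counts against the summed scaled counts of cell type markers in the 12 mice, all on log axes. The markers are 10 of T cells, 6 of myeloid cells and 2 of fibroblasts and vessel-associated cells. The panel titled fibroblast and endothelial markers holds these 2, Col6a3 and Pdgfrb. The open point is the lane in which Myc was below background. Myc is lower in mice with more T cell marker counts (r = -0.66) and higher in those with more fibroblast marker counts (r = 0.62).

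Of a list of 42 genes of the MYC network and its metabolic targets 24 were measured, and 22 passed the filter on background. The relatives Mycn and Mycl were at or below background in every lane, with at most 15 and 27 counts. None of the 22 genes passed the adjusted threshold in any contrast. In ANT008+aPD-1 against Scram+IgG 7 had a log2 fold change above 0 and 15 below, with a median of -0.22 against 0.12 over all 640 genes. At an unadjusted p under 0.05 only Slc2a1 of the list was higher in this contrast, as were 9.38% of all genes. No gene of the list was lower at that threshold, and 3.44% of all genes were. For ANT008+IgG against Scram+IgG the median of the list was 0.18 (all genes 0.11), and for Scram+aPD-1 against Scram+IgG -0.02 (all genes 0.15). The 3 largest positive values among the list's genes above background in every lane belonged to Hk2, a hexokinase (0.77 ± 0.65), Odc1, the first enzyme of polyamine synthesis and a classical MYC target (0.60 ± 0.32), and the amino acid transporter subunit Slc3a2 (0.40 ± 0.42). The 3 most negative were those of Fasn, the fatty acid synthase (-0.85 ± 0.58), the nucleolar chaperone gene Npm1 (-0.59 ± 0.52) and Ldha, a subunit of lactate dehydrogenase (-0.55 ± 0.40). Their adjusted p from edgeR lay between 0.458 and 0.711.

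The values behind these genes show how far the groups overlapped. Odc1 had scaled counts of 664, 475 and 544 in Scram+IgG and 685, 864 and 987 in ANT008+aPD-1, with no overlap between them, as 7.81% of all genes were higher without overlap. Ldha had 3141, 3938 and 4704 in Scram+IgG and 1838, 2825 and 3381 in ANT008+aPD-1, where mouse 3 was above the lowest Scram+IgG mouse.

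Of a list of 45 partners, regulators and hypoxia targets of HIF 22 were measured and 21 tested. Slc2a1, Hk2, Pkm, Eno1, Ldha and Tfrc are on the MYC list too, so the medians of both lists are not separate results. Hif3a, a relative of Hif1a, was at or below background in every lane, and Vhl, whose product marks HIF-1α for breakdown, had a log2 fold change of 0.08 ± 0.96 in ANT008+aPD-1 against Scram+IgG. None of the 21 genes passed the adjusted threshold. In Scram+aPD-1 against Scram+IgG 19 of 21 had a log2 fold change above 0, with a median of 0.44 against 0.15 over all genes. That median rested on Scram+aPD-1 mouse 3, without which it was 0.03 (all genes -0.07). In the same contrast 2 of the 21, the heme oxygenase gene Hmox1 and the nitric oxide synthase gene Nos2, were higher at an unadjusted p under 0.05, as were 1.09% of all genes. In ANT008+aPD-1 against Scram+IgG 10 were above 0 and 11 below, with a median of -0.19 against 0.12 over all genes. Against Scram+aPD-1, 8 were above 0 and 13 below in ANT008+aPD-1, with a median of -0.44 against -0.04, which was -0.05 (all genes 0.17) without Scram+aPD-1 mouse 3.

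In ANT008+aPD-1 against Scram+IgG the 3 largest positive values of this list among genes above background in every lane were those of Hmox1 (0.83 ± 0.61), Vegfa, the vascular growth factor gene (0.82 ± 0.43), and Hk2 (0.77 ± 0.65). The 3 most negative were those of Car9, a carbonic anhydrase gene induced by hypoxia (-0.86 ± 0.70), Ldha (-0.55 ± 0.40) and Hk1, another hexokinase gene (-0.41 ± 0.30). Vegfa had scaled counts of 227, 266 and 344 in Scram+IgG and 577, 528 and 385 in ANT008+aPD-1. These did not overlap, as 7.81% of all genes were higher without overlap. Hk1 had 541, 546 and 610 in Scram+IgG and 469, 484 and 325 in ANT008+aPD-1, which did not overlap either and lay on the opposite side, as did 5.78% of all genes. Car9 ran from 362 to 1140 in Scram+IgG and from 396 to 490 in ANT008+aPD-1, within the Scram+IgG range. At an unadjusted p under 0.05, 4 of the 21 were higher in ANT008+aPD-1 than in Scram+IgG, namely Slc2a1, Gpi1, Slc16a3 and Nos2, and 9.38% of all genes were. All 4 were at or below background in at least 1 lane. Against Scram+aPD-1, Ldha and Car9 were lower in ANT008+aPD-1 at an unadjusted p under 0.05, as were 1.56% of all genes. Gpi1 was higher, as were 4.69% of all genes. Car9 had 446, 736 and 2750 in Scram+aPD-1, which overlapped the ANT008+aPD-1 mice. Its log2 fold change of -1.54 rested on Scram+aPD-1 mouse 3, without which it was -0.40, and that of Ldha moved from -0.88 to -0.57. That of Gpi1 rested on the shallow lanes, without which it fell from 1.99 to 0.57. Without these mice none of the 3 kept an unadjusted p under 0.05.

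**Figure D5:**
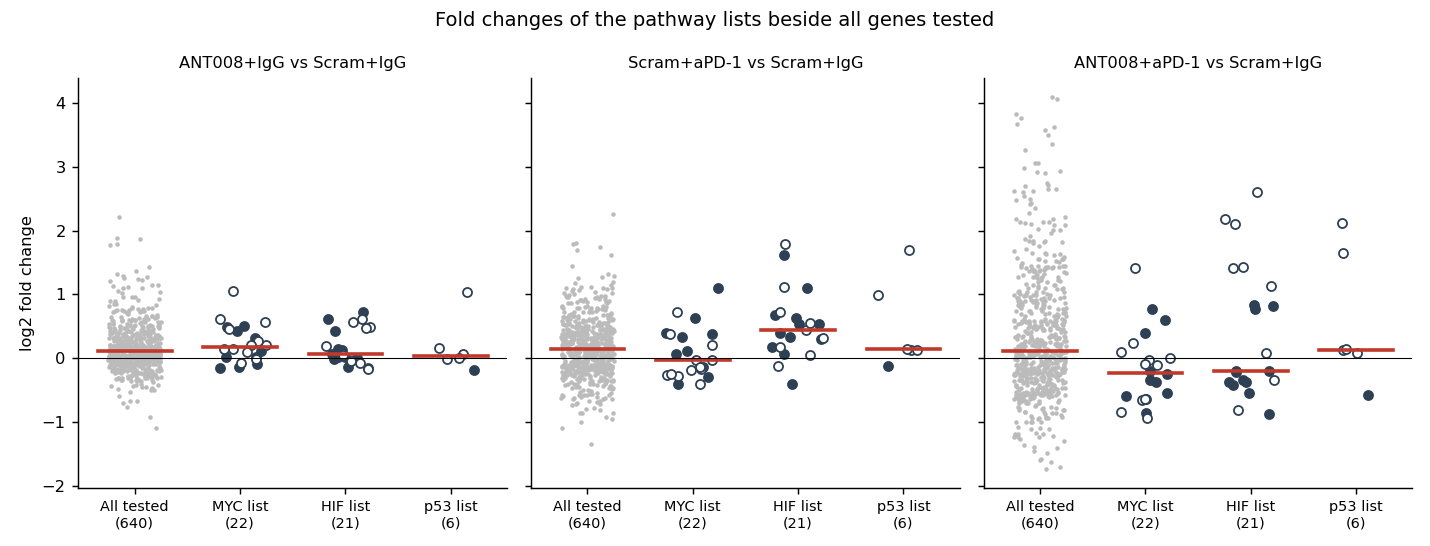
Log2 fold changes of the tested genes of the MYC, HIF and p53 lists beside all 640 genes tested, in the 3 comparisons with Scram+IgG. Filled points are genes above background in every lane, open points are not, and red lines are medians. The HIF list has a median of 0.44 in Scram+aPD-1, where all genes have 0.15, and the MYC list one of -0.22 in ANT008+aPD-1, where all genes have 0.12.

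Of a list of 49 regulators and targets of p53 only 7 were measured and 6 tested. In ANT008+aPD-1 against Scram+IgG the survival gene Bcl2 had a log2 fold change of 0.13 ± 0.39, its relative Bcl2l1 0.14 ± 0.29 and the metabolic p53 target Tigar 0.09 ± 0.58. The median over the 6 genes was 0.14, against 0.12 over all genes. Thbs1, a secreted inhibitor of vessel growth made by many stromal and myeloid cells, had 2.11 ± 0.73 (unadjusted p = 0.0130, adjusted p = 0.309 from edgeR). In this contrast 9.38% of all genes were higher at an unadjusted p under 0.05. Thbs1 was also higher at that threshold in Scram+aPD-1 against Scram+IgG, as were 1.09% of all genes. It was above background in 11 of the 12 lanes, with a lowest count of 8. Its log2 fold changes without the shallow lanes are not given here. Trp63, a relative of Trp53, was at or below background in every lane.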

How the data were processed

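RNA of T cells from 12 tumors was counted on the panel named above. The authors deposited raw counts per probe and lane, with no background subtraction or scaling, and the panel definition, from which targets were read. A normalization or test for single genes is not given in the sources used here. Mice were assigned to groups from the sample titles.

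Each lane was scaled by the geometric mean of 3 of its 20 housekeeping genes, those above background in every lane. Endogenous genes exceeding background in 3 or more lanes, 640 in all, were fitted together with edgeR 4.0.16 (quasi-likelihood, R 4.3.3), with Benjamini-Hochberg adjustment over all of them and a threshold of 0.1. Levels, as log2(scaled count + 1), and ratios, with 1 added to both counts, were compared by exact permutation (one-way F). Since Arnt was not analysed, 6 of these tests were made. P-values measure the spread between these mice. Alternatives used limma 3.58.1 and DESeq2 1.42.0, other scalings and filters, and fewer mice. Named list genes are the 3 highest and 3 lowest log2 fold changes in ANT008+aPD-1 against Scram+IgG, among genes above background in every lane, and the most alike genes are the 3 with the highest Pearson r. Genes named beside these were chosen after their values were seen. Some items are not reported here. The members and lists were chosen with earlier results of these data known.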

Additional observations from a re-analysis of the deposited data

How the results depend on the processing

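The log2 fold change of Myc in ANT008+aPD-1 stayed below 0 against Scram+IgG (-1.44 to -0.93) and against ANT008+IgG (-1.71 to -0.89) in 24 alternatives each. Its adjusted p ran from 0.0408 to 0.885 and from 0.138 to 0.869, and passed the threshold once, with voom and sample weights against Scram+IgG (-1.31). Voom turned Myc in ANT008+IgG against Scram+IgG to -0.36, and with 1 mouse left out that value ran from -0.26 to 0.55. Hif1a in ANT008+aPD-1 against Scram+IgG was -0.028 with voom, and -0.18 to 0.32 with 1 mouse left out. Without the 2 shallow lanes Hif1a in ANT008+aPD-1 was 0.24 against ANT008+IgG and, with Scram+aPD-1 as the base, 0.13, and with 1 mouse left out the former ran from -0.43 to 0.063.

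Trp53 had no stable direction. With voom its log2 fold change was -0.59 in ANT008+IgG and -0.35 in Scram+aPD-1 against Scram+IgG, 1.00 and 0.76 in ANT008+aPD-1 against ANT008+IgG and Scram+aPD-1, and 1.35 in the interaction. In ANT008+aPD-1 against Scram+IgG it was -0.038 with TMM, -0.078 with background subtracted, -0.99 without the shallow lanes and -0.054 without the lanes marked FLAG for no stated reason (mouse 1 of Scram+IgG and of ANT008+IgG). With limma it was 0.074 with ANT008+IgG as the base and 0.033 with Scram+aPD-1, and with the endogenous total 0.054 against the latter. With 1 mouse left out it ran from -0.78 to 0.99 for ANT008+IgG, from -0.70 to 1.04 for Scram+aPD-1 and from -0.37 to 0.73 for ANT008+aPD-1 against Scram+IgG. The ranges were -0.85 to 0.99 against ANT008+IgG, -0.91 to 0.92 against Scram+aPD-1 and -1.39 to 0.46 for the interaction. The cause was not tested.

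No gene passed the adjusted threshold in the comparisons as reported. In ANT008+aPD-1 against Scram+IgG 2 did with TMM, 1 with the endogenous total, 30 with DESeq2, 156 with voom and 83 without the FLAG lanes, and 0 to 84 with 1 mouse left out, the 84 without Scram+IgG mouse 1 and 68 without ANT008+aPD-1 mouse 2. Voom called 44 genes in ANT008+IgG and 143 in Scram+aPD-1 against Scram+IgG, and 5 in ANT008+aPD-1 against ANT008+IgG. DESeq2 called 5 there and 5 against Scram+aPD-1. Without ANT008+aPD-1 mouse 2 the ranges reached 26, 35 and, for the interaction, 1, from 0.

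At the threshold of 0.1 on the adjusted p, the exact permutation tests of Myc and of Myc over Hif1a passed without the FLAG lanes (0.0624 each), and with 1 mouse left out they ran from 0.0904, without Scram+IgG mouse 1, to 0.552 and 0.464. None passed at 0.05. The titles number the mice of each group and state no pairing. Deviations from the group mean were correlated above 0.1 in 7 of 18 same-number pairs and in 13 of 36 different-number pairs. Mouse 1 of Scram+IgG, of ANT008+IgG and of Scram+aPD-1 had r of 0.78, 0.76 and 0.68 with one another. Their r with ANT008+aPD-1 mouse 1 was -0.11, -0.11 and -0.25. What these lanes share was not tested. With a replicate block Myc in ANT008+aPD-1 against Scram+IgG was -1.18 (adjusted p = 0.181 from edgeR), the exact permutation p of Myc over Hif1a was 0.0139 (adjusted p = 0.0833, past the threshold), and no count of called genes moved. Myc and Trp53 have no value where only genes above background in all lanes are kept. Alternatives for the list medians and for Ldha, Car9 and Gpi1 were added after seeing the data. With TMM the median of all genes in ANT008+aPD-1 against Scram+IgG moved from 0.12 to -0.03, and that of the MYC list from -0.22 to -0.40. In 2 shallow lanes Myc and Trp53 had at most 48 counts, which limits what can be said of ANT008+aPD-1.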
